A study of Homo sapiens with 60 samples.

Results

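An ethanol extract of Glycyrrhizae Radix (licorice root) was compared with an ethanol extract of Panax Ginseng (ginseng root), both at 500 µg/mL, in A549 cells after 24 h. The comparison rests on 6 of the 60 libraries of the series, 3 for each extract, chosen by their labels and not by any measured value. A549 is an established human lung adenocarcinoma line with some features of alveolar epithelium. The series measured messenger RNA by paired-end RNA-seq in A549 cells given plant extracts or mixtures of them at 3 doses, or the solvent dimethyl sulfoxide alone (vehicle, 3 libraries). The same extracts at 100 µg/mL and at 20 µg/mL, with 3 libraries for each extract and dose, served as lower matched doses in libraries of their own.

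Both extracts were made from dried plant in aqueous ethanol with ultrasound, filtered, concentrated and freeze-dried, so each is a mixture whose composition was not measured here. The design text says that extracts which inhibited growth at lower concentrations were dosed below 500 µg/mL, whereas the labels give 500 µg/mL for both extracts, and the labels were followed. The labels number the replicates without naming separate cultures. The p-values rest on the spread between libraries of a group, pooled over all groups of the series, and that spread may be technical. The 6 libraries carry sample codes of one set and the vehicle libraries carry codes of another. A difference from vehicle and a difference between these code sets cannot be told apart, and vehicle levels are given for orientation only. The labels and the design text also give different percentages of dimethyl sulfoxide for the vehicle.

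As background, licorice root is known for the saponin glycyrrhizin and for many flavonoids and chalcones, and ginseng root for its ginsenosides. The aryl hydrocarbon receptor is a transcription factor that planar aromatic ligands, some plant flavonoids among them, bring into the nucleus, where it pairs with ARNT and raises genes such as CYP1A1. ATF4 is the transcription factor of the integrated stress response: its translation rises when amino acids run short or unfolded protein builds up, and with C/EBP partners it raises genes of amino acid synthesis and transport, transfer RNA charging and cell death control. Both pathways act in lung epithelial cells.

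The stretches of 250 bases before the transcription start of 2 aryl hydrocarbon receptor targets (CYP1A1 and TIPARP) and 2 genes known as ATF4 targets (ASNS and CHAC1) are shown first. These 4 genes were among the 15 largest differences toward licorice, and their windows hold the letters searched. The same held for ATF3, with a match to the C/EBP-ATF letters at position -191, but its window is not printed. CYP1B1, also among the 15, had no window available. The windows of other ATF4 targets and related genes with large differences, namely ADM2, ULBP1, NIBAN1, PCK2, GDF15, SLC1A4, TRIB3 and DDIT3, held no match to the C/EBP-ATF letters and are not printed. All 4 windows come from RefSeq on GRCh38.p14 and are written in the direction of transcription. They lie at chr15:74725529-74725778 (minus strand) for CYP1A1, chr3:156674340-156674589 (plus strand) for TIPARP, chr7:97872409-97872658 (minus strand) for ASNS and chr15:40953221-40953470 (plus strand) for CHAC1. Capitals mark GCGTG, the core of the receptor's element, in the windows of CYP1A1 and TIPARP, and TGATGNAA, the core of the C/EBP-ATF element, in those of ASNS and CHAC1. Matches on the opposite strand appear as CACGC in TIPARP and as TTGCATCA in CHAC1. The ASNS and CHAC1 windows also hold the letters of GCGTG on one of their strands, which are not in capitals there.
CYP1A1: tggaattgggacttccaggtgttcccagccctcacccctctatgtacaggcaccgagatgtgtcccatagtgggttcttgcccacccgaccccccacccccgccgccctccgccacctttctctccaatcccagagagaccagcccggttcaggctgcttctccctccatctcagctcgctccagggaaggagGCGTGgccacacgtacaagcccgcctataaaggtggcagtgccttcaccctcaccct
TIPARP: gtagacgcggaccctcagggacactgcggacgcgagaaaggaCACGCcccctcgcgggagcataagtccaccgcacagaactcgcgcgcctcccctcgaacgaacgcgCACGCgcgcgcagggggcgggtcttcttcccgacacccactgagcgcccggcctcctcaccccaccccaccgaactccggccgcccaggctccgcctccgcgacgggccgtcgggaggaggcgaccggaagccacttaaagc
ASNS: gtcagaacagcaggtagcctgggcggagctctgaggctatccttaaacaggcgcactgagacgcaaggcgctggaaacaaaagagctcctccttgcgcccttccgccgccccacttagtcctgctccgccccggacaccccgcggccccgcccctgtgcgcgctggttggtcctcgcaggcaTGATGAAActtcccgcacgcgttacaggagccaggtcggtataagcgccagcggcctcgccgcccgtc
CHAC1: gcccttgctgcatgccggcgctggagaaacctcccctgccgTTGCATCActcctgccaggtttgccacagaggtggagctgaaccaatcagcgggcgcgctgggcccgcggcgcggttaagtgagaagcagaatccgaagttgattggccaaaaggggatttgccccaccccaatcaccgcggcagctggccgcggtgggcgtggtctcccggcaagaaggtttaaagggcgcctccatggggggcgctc
The matches began at position -57 in CYP1A1, -208 and -142 in TIPARP, -68 in ASNS and -209 in CHAC1, counted back from the start site. GCGTG, searched on both strands, was held by 31.9% of all 27305 promoter windows in the table and by 44.2% of the windows of tested genes, so a match to these letters is common. It was in 42.4% of the 264 windows available for genes at least 2-fold higher with licorice and in 30.9% of the 175 windows of genes at least 2-fold lower. TGATGNAA was rarer, in 3.19% of all windows and 1.49% of those of tested genes. It was in 6.82% of the windows of the higher genes (18 of 264), in 2.86% of those of the lower genes (5 of 175), in 4 of 14 windows of amino acid and one-carbon synthesis genes, in 3 of 20 of ATF4 targets, in 2 of 16 of cytosolic synthetases and in 0 of 12 of amino acid transporters. A match describes letters in a window and is not evidence that a factor bound there.

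The 6 libraries held 22625356 to 27759279 expected counts (read pairs assigned to genes by the authors' software), within the 18602484 to 29764358 of the whole series, and 22692 to 23398 genes had a value above 0. Mitochondrial genes took 19.2% to 22.8% of the counts with licorice, 18.2% to 20.7% with ginseng and 15.9% to 19.1% with vehicle. Licorice replicate 1 had the largest total and the highest mitochondrial share of the 6, and it differed more from replicates 2 and 3 (chi-square per degree of freedom of 10.1 and 13.8) than these did from each other (3.60). Levels are given as CPM, counts per 1e+06 of the TMM-adjusted library total, and differences as log2 of licorice over ginseng ± SE, so that a positive value means higher with licorice. Where the values of a called gene are given by library below, the groups did not overlap unless stated. A gene was called when edgeR's quasi-likelihood test gave a Benjamini-Hochberg adjusted p of at most 0.05 over the 17764 genes tested.

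At 500 µg/mL the extracts left A549 cells with broadly different messenger RNA profiles. Of the 17764 genes tested, 6103 were called (34.4%), 2954 of them higher with licorice (16.6%) and 3149 lower (17.7%). These shares are the ones to set beside every count of list members called at this dose. Most called differences were small, with a median size of 0.36 on the log2 scale. A difference of at least 2-fold was seen in 414 called genes toward licorice (2.33%) and in 301 toward ginseng (1.69%), and of at least 4-fold in 76 and 50. Without licorice replicate 1, 5401 genes were called. The median difference over all genes tested was -0.003, a value that TMM scaling holds near 0. In 8084 genes (45.5%) the 3 licorice libraries lay wholly above or wholly below the 3 ginseng libraries. Genes coding for protein made up 92.4% of the called genes, against 78.6% of those tested.

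Some levels carry uncertainty from shared reads. The authors' software splits a read that fits several genes, and the expected counts of ACAT2, AHR, ATF4, ATF5, ATP1B1, CALR, CBS, CCND1, CD59, CD68, CP, CYP1B1, DDIT3, DUSP6, EGFR, FADS2, FDPS, FTH1, GAPDH, HMGCS1, HSP90AA1, HSPA1A, IDI1, KRT18, KRT8, LDHA, LEFTY1, MAP1LC3B, MARS1, MDM2, MICA, MICB, MTHFD1, MTHFD2, NQO1, NR1D1, PLAU, SAA1, SCNN1A, SERPINA3, SHMT1, SLC6A9, SLC7A11, SLC7A5, SQSTM1, SREBF1, SREBF2, UGT1A1, UGT1A6 and VEGFA were not whole numbers in at least 3 of the 6 libraries. Whether the counting used the strand is not given in the sources used here, although the kit's name marks it as directional, so genes that overlap another on the opposite strand may also share reads. Among those named below, this applies to DDIT3 with MARS1, KRT8 with KRT18, ACAT2 with TCP1, NR4A1 with NR4A1AS, FADS2 with FADS1, KIF20A with CDC23, SQSTM1 with MGAT4B, SREBF1 with RAI1, ALDH1L2 with NOPCHAP1, ATP1B1 with NME7, CRELD2 with ALG12, ETV4 with DHX8, MAP1LC3B with FBXO31 and SLC6A9 with CCDC24.

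**Figure D1:**
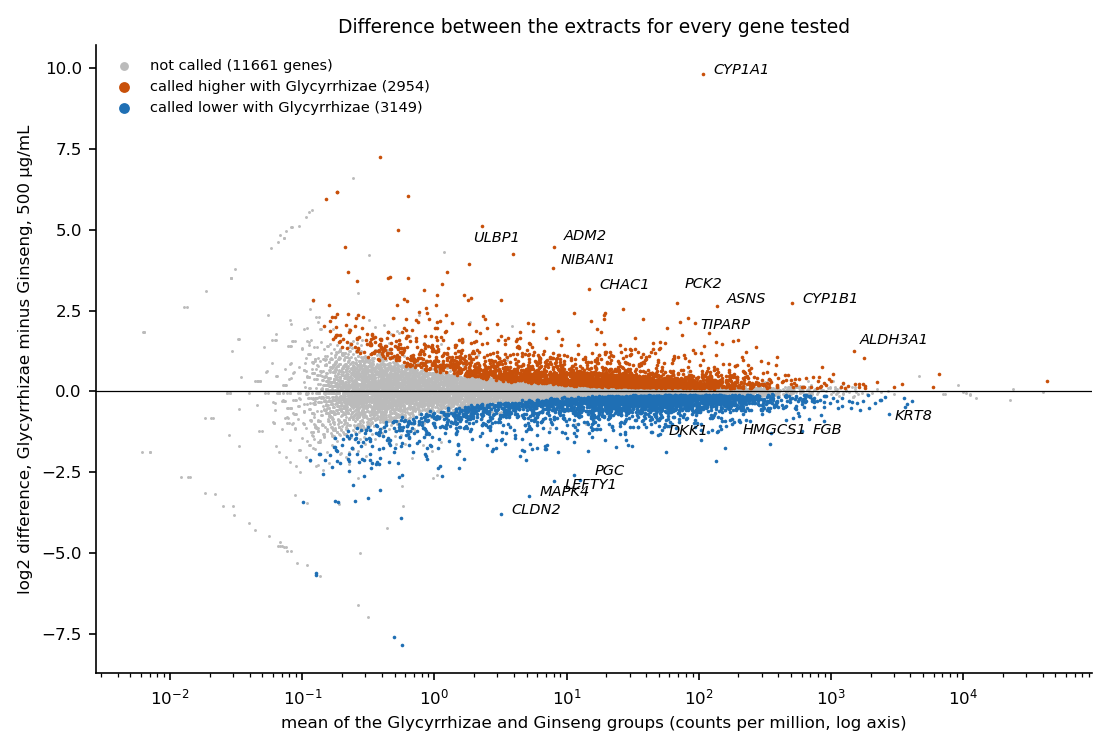
Each point is 1 of the 17764 genes tested, with the mean level of both groups in CPM on a log axis against the log2 difference of Glycyrrhizae (licorice) minus Ginseng at 500 µg/mL. Called genes are coloured, 2954 higher and 3149 lower with licorice, and CYP1A1 stands alone at 9.82, while the lowest labelled gene, CLDN2, is at -3.81.

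The largest difference in the comparison was in CYP1A1 (ENSG00000140465, chr15:74719542-74725610), the cytochrome P450 that is the classic target of the aryl hydrocarbon receptor. It stood at 209, 218 and 218 CPM in the licorice libraries and at 0.169, 0.183 and 0.359 CPM in the ginseng libraries. The ginseng level was that of a gene close to silent, with 4, 5 and 8 counts, and the vehicle mean was 0.316 CPM. The difference was 9.82 ± 0.18 (edgeR, adjusted p = 1.23e-37), and its size rests on those few reads in the ginseng libraries.

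Other receptor targets were higher by smaller factors from higher starting levels. CYP1B1, a related P450 that oxidises oestrogens and aromatic compounds, was at 889.9, 899 and 876 CPM with licorice against 135, 128 and 133 CPM with ginseng, a difference of 2.75 ± 0.041 (edgeR, adjusted p = 5.21e-41). TIPARP, an ADP-ribosyltransferase that limits the receptor, was at 136, 137 and 137 CPM against 28.8, 27.1 and 28.7 CPM (2.28 ± 0.048). The vehicle means were 112 and 27.7 CPM, and every licorice library lay far above every ginseng library in both genes. AHRR, the receptor's repressor, differed by 2.12 ± 0.17, though it overlaps PDCD6 on the same strand and reads from that gene cannot be told apart with certainty. CYP2S1, another inducible P450, differed by 1.67 ± 0.12. ALDH3A1, an aldehyde dehydrogenase that is also an NRF2 target, was at 2172, 2088 and 2141 CPM against 871, 905 and 887 CPM (1.27 ± 0.042), and its vehicle mean of 1119.5 CPM lay above the ginseng libraries and below the licorice ones.

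Over the 13 tested genes of the receptor list, which holds the receptor, its partner and targets, 8 were higher with licorice and none lower, against 16.6% higher among all genes, and their groups did not overlap in 9 of 13, beside 45.5% of all genes. The list's median difference was 1.03, beside -0.003 over all genes. Neither the receptor nor its partner was called: AHR differed by -0.068 ± 0.059 (edgeR, adjusted p = 0.409) and ARNT by -0.062 ± 0.054 (adjusted p = 0.416). NQO1, a quinone reductase under both the receptor and NRF2, was at 1051, 1104 and 1111 CPM with licorice and 1112, 1173 and 1109 CPM with ginseng, groups that overlapped (edgeR, adjusted p = 0.385). UGT1A6 differed by -0.17 ± 0.083 and was not called, whereas UGT1A1, its neighbour in a locus of shared exons, differed by 0.91 ± 0.056. How reads were split between these overlapping transcripts is uncertain.

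**Figure D2:**
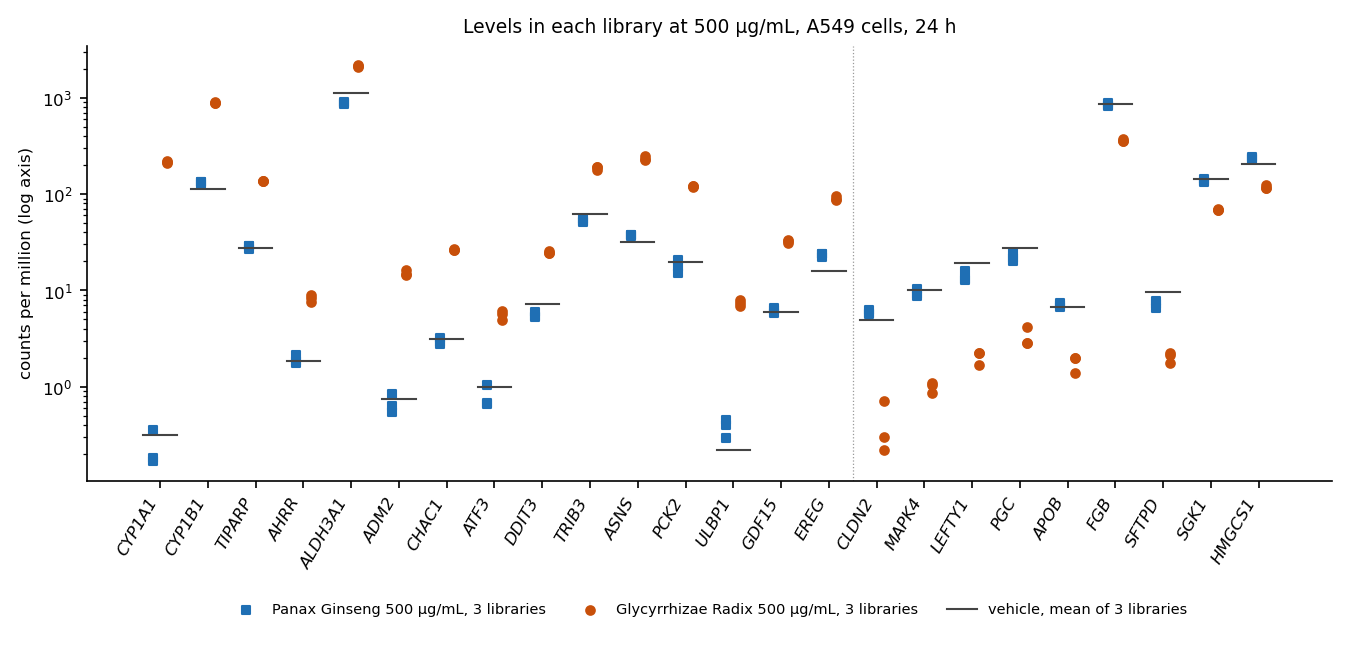
Levels in CPM on a log axis for 24 genes, with the 3 Panax Ginseng libraries as blue squares, the 3 Glycyrrhizae Radix libraries as orange circles and the vehicle mean as a bar. The dotted line parts the 15 genes that were higher with licorice from the 9 that were lower, and in each of the 24 the libraries of the extracts do not overlap.

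ATF4 targets were mostly higher with licorice, many of them by a large factor. Of 22 tested, 19 were higher with licorice and 1 lower, beside 16.6% and 17.7% of all genes. The list's median difference was 1.40, and 15 members were at least 2-fold higher, beside 2.33% of all genes. ADM2, a peptide hormone of the adrenomedullin family, was at 14.9, 16.4 and 14.6 CPM with licorice against 0.55, 0.84 and 0.628 CPM with ginseng (4.48 ± 0.20, edgeR adjusted p = 5.33e-23). CHAC1, an enzyme that degrades glutathione, was at 26.3, 27.1 and 26.3 CPM against 2.92, 2.78 and 3.23 CPM (3.16 ± 0.11). DDIT3, the pro-death factor CHOP, was at 24.7, 25.9 and 24.5 CPM against 5.92, 5.41 and 5.30 CPM (2.17 ± 0.091). In these genes the lowest licorice library lay well above the highest ginseng library.

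Further members with large differences were NIBAN1 (3.82 ± 0.16), a regulator of translation under stress, ATF3 (2.81 ± 0.19), a transcription factor, and STC2 (2.13 ± 0.051), a secreted glycoprotein. TRIB3, a pseudokinase that binds ATF4, rose from a ginseng mean of 53.3 ± 2.07 CPM to 186 ± 6.45 CPM (SD, n = 3). PPP1R15A, the phosphatase subunit that switches the stress response off, differed by 1.32 ± 0.059, and ATF4 itself by 0.93 ± 0.050. VEGFA, the vascular growth factor, differed by 0.97 ± 0.048. CTH, which releases cysteine, was not called (0.12 ± 0.13). ATF5 was the member that was lower (-0.35 ± 0.14, edgeR adjusted p = 0.046), and leaving out any library but licorice replicate 1 ended its call (adjusted p from 0.0608 to 0.235).

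Enzymes that make amino acids and feed one-carbon units into them were higher in the same comparison. Of 20 tested, 15 were higher and 3 lower, beside 16.6% and 17.7% of all genes, with a median difference of 0.94. ASNS, which makes asparagine, was at 225, 234 and 250.3 CPM with licorice against 37.1, 38.1 and 38.1 CPM with ginseng (2.65 ± 0.049, edgeR adjusted p = 1.98e-37). PHGDH, the first enzyme of serine synthesis, was at 116, 118 and 119.7 CPM against 26.9, 27.1 and 25.2 CPM (2.16 ± 0.044). The next steps of that route were higher too, PSAT1 by 1.58 ± 0.071 and PSPH by 0.80 ± 0.10. So were the mitochondrial folate enzymes MTHFD2 (1.57 ± 0.054), ALDH1L2 (1.75 ± 0.052) and SHMT2 (0.82 ± 0.044).

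PCK2, the mitochondrial enzyme that makes phosphoenolpyruvate, differed by 2.74 ± 0.071, and CBS, which starts the route from homocysteine to cysteine, by 2.23 ± 0.094. CBS has a near-identical copy in GRCh38, so its level is uncertain. MTHFD1L, another mitochondrial folate enzyme, differed by 0.44 ± 0.055. The lower members included the cytosolic folate enzymes SHMT1 (-0.63 ± 0.036) and MTHFD1 (-0.31 ± 0.044). The share of the list that was lower, 3 of 20, was near the 17.7% of all genes. The folate enzymes named here were picked with their values known, so no split by compartment is drawn from them.

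Amino acid carriers and the enzymes that load transfer RNA were mostly higher. Of 14 transporters tested, 9 were higher and 2 lower (median 0.84), beside 16.6% and 17.7% of all genes. SLC7A11, the cystine importer that feeds glutathione, was at 303, 329 and 326 CPM with licorice against 143, 137 and 136 CPM with ginseng (1.21 ± 0.064, edgeR adjusted p = 3.24e-20). Its partner chain SLC3A2 differed by 0.81 ± 0.069, the leucine carrier SLC7A5 by 1.03 ± 0.054, the neutral amino acid carrier SLC1A4 by 2.25 ± 0.093 and the glycine carrier SLC6A9 by 1.92 ± 0.091. SLC38A2, a carrier also known as an ATF4 target, differed by -0.071 ± 0.051 and was not called. SLC7A2, a cationic amino acid carrier, was lower (-0.58 ± 0.074).

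Of 20 cytosolic aminoacyl-tRNA synthetases, 12 were higher and 1 lower (median 0.53), beside 16.6% and 17.7% of all genes. GARS1, for glycine, was at 398, 389 and 392 CPM against 149.8, 152 and 155 CPM (1.37 ± 0.043, edgeR adjusted p = 1.76e-28), and those for cysteine, serine, methionine and alanine (CARS1, SARS1, MARS1, AARS1) differed by 1.14, 1.13, 1.07 and 1.06. Another 7 were not called. QARS1, for glutamine, was the lower one (-0.13 ± 0.038), and it was not called when libraries were scaled by their totals alone (edgeR, adjusted p = 0.149) or without a filter on low counts (adjusted p = 0.128).

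**Figure D3:**
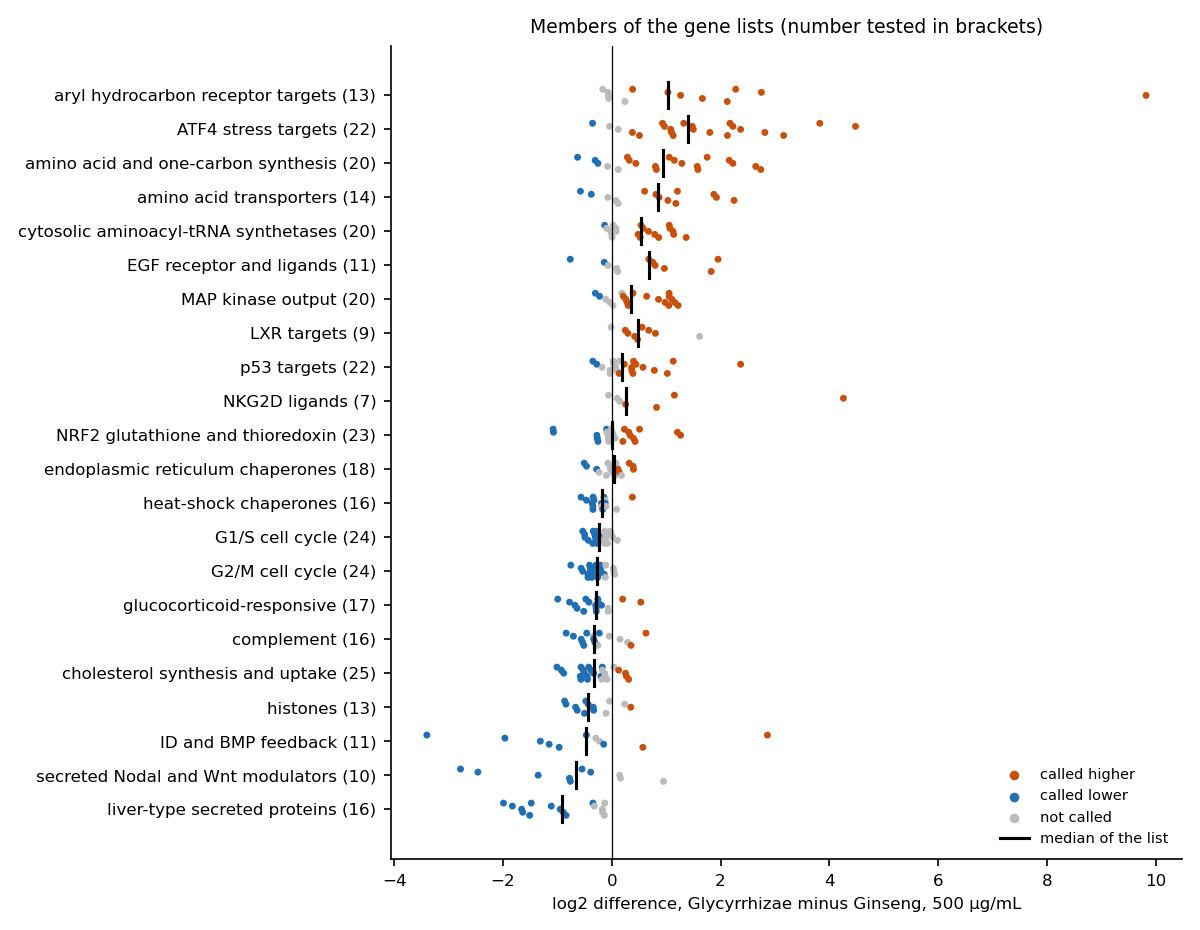
Log2 difference of Glycyrrhizae minus Ginseng at 500 µg/mL for every tested member of 22 gene lists, with called members coloured by direction and the list's median as a black bar. Medians run from 1.40 for ATF4 stress targets to -0.92 for liver-type secreted proteins, and the G2/M and G1/S lists have no member called higher.

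Chaperones were not higher as a group. Of 18 endoplasmic reticulum chaperones and quality control genes, 5 were higher and 3 lower, with a median of 0.038. Among all genes 16.6% were higher and 17.7% lower, so the lower share was near that of all genes. HSPA5, the main chaperone of that compartment (BiP), was at 614, 586 and 619 CPM with licorice against 465, 455 and 459 CPM with ginseng (0.40 ± 0.043, edgeR adjusted p = 1.94e-10), a modest difference. CALR (-0.46 ± 0.045) and CRELD2 (-0.51 ± 0.066) were lower, and XBP1, a factor of the unfolded protein response, was not called (-0.071 ± 0.040).

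Among 16 chaperones of the cytosol and mitochondria, 11 were lower and 1 higher. The lower ones included DNAJA1 (-0.56 ± 0.048), HSPA8 (-0.35 ± 0.053) and HSP90AA1 (-0.33 ± 0.044), and the higher one was the mitochondrial HSPA9 (0.38 ± 0.033). HSPA1A was lower as well (-0.47 ± 0.057), but its near-identical copy HSPA1B makes that value uncertain. Proteasome subunits leaned the same way, with 14 of 27 lower and 1 higher (median -0.14). The lower count was 8 when libraries were scaled by their totals alone, and the higher one was lost without licorice replicate 3 or ginseng replicate 1.

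Genes of the NRF2 pathway, which is known to be constitutively active in A549, did not move as one. Of 23 glutathione, thioredoxin and related genes, 9 were higher and 6 lower, beside 16.6% and 17.7% of all genes, with a median of 0.009. GCLM, the modifier subunit of the enzyme that starts glutathione synthesis, was higher (0.51 ± 0.043), and GCLC, its catalytic subunit, was lower (-0.27 ± 0.040). GPX2, a glutathione peroxidase, was at 119.7, 97.5 and 95.1 CPM with licorice against 219, 218 and 223 CPM with ginseng (-1.08 ± 0.11, edgeR adjusted p = 1.55e-11). Licorice replicate 1 was the highest of its group for GPX2, and all its libraries lay below the lowest ginseng library.

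HMOX1, which breaks down heme, was at 123, 100.2 and 94.9 CPM against 49.8, 53.4 and 51.4 CPM (1.04 ± 0.075), and the iron store FTH1 differed by 0.53 ± 0.080. SLC40A1, the iron exporter, was lower (-0.65 ± 0.063). TXNRD1 (0.23 ± 0.056) and SRXN1 (0.34 ± 0.040) were slightly higher, and TXN was not called (0.064 ± 0.057). SQSTM1, an autophagy receptor that binds the NRF2 inhibitor KEAP1, differed by 0.75 ± 0.064, and MAP1LC3B, which coats autophagosomes, by 0.51 ± 0.048. TFEB, a regulator of lysosome genes, was lower (-0.82 ± 0.087), and the autophagy and lysosome list as a whole had 7 of 23 higher and 7 lower.

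Some ligands of the EGF receptor, and most genes of a list that reports MAP kinase output, were higher with licorice. Of 11 genes of the receptor family and its ligands, 6 were higher (4 without ginseng replicate 1) and 2 lower, a lower count that was 1 without licorice replicate 3 or ginseng replicate 2 or 3. Epiregulin (EREG) was at 89.8, 95.7 and 86.8 CPM with licorice against 23.8, 24.2 and 22.2 CPM with ginseng (1.95 ± 0.058, edgeR adjusted p = 2.33e-29), and amphiregulin (AREG) at 30.7, 28.1 and 26.4 CPM against 7.78, 7.97 and 8.30 CPM (1.83 ± 0.10). Neither gene's groups overlapped. TGFA (0.75 ± 0.10) and NRG1 (0.68 ± 0.074) were also higher. The receptor EGFR itself was not called (0.11 ± 0.048, edgeR adjusted p = 0.0698) except without ginseng replicate 3 (adjusted p = 0.043) and with a replicate block (adjusted p = 0.0278), and ERBB3 was lower (-0.76 ± 0.066).

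Of 20 genes that report MAP kinase output, 14 were higher and 2 lower (median 0.35). The lower count was 1 without licorice replicate 2 or 3 or ginseng replicate 1. The higher genes included the transcription factors EGR1 (1.16 ± 0.17), FOSL1 (0.98 ± 0.14), JUN (1.05 ± 0.071) and ETV4 (1.06 ± 0.063) and the phosphatases DUSP5 (1.05 ± 0.079) and DUSP6 (0.64 ± 0.091), which switch the kinases off. FOS was not called (-0.11 ± 0.11), and CCND1, a cyclin known to follow this cascade, was lower (-0.30 ± 0.048). Other immediate early genes, absent from that list and picked with their values known, were lower, with -1.57 ± 0.10 for NR4A1, -0.78 ± 0.17 for NR4A2 and -0.64 ± 0.040 for the phosphatase DUSP1.

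Several p53 targets were higher, among them some that ATF4 also raises. Of 22 tested, 12 were higher and 2 lower (median 0.19), beside 16.6% and 17.7% of all genes. GDF15, a stress hormone, was at 33.6, 30.9 and 32.4 CPM with licorice against 6.30, 6.61 and 5.79 CPM with ginseng (2.37 ± 0.10). CDKN1A, the cyclin-dependent kinase inhibitor p21, was at 249.7, 235 and 233 CPM against 142, 142 and 133 CPM (0.78 ± 0.047, edgeR adjusted p = 2.21e-18). MDM2, which degrades p53, differed by 0.40 ± 0.055, BBC3, the pro-death protein PUMA, by 1.02 ± 0.12, and BAX by 0.39 ± 0.062. ZMAT3, TIGAR and RRM2B, also known p53 targets, were not called, with 0.071 ± 0.059, -0.031 ± 0.066 and 0.038 ± 0.061, and TP53INP1 was lower (-0.35 ± 0.080). GDF15 and SESN2, a sestrin (1.13 ± 0.063), are on the ATF4 list as well.

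ULBP1, a ligand of the NKG2D receptor of natural killer cells, had the third largest difference toward licorice among genes at 5 CPM or more in either group. It stood at 7.39, 7.93 and 6.93 CPM with licorice and 0.296, 0.402 and 0.449 CPM with ginseng (4.26 ± 0.28, edgeR adjusted p = 6.04e-17), where 7, 11 and 10 counts were behind the ginseng values. MICA (0.10 ± 0.077) and MICB (0.15 ± 0.089), ligands of the same receptor, were not called. In all, 4 of 7 tested ligands were higher, but only 1 when ginseng replicate 1 was left out or in DESeq2, and 2 when licorice replicate 1 or 2 was left out.

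Lipid synthesis genes were mostly lower with licorice, although some regulators of the pathway were higher. Of 25 genes of cholesterol synthesis and uptake, 15 were lower and 4 higher (median -0.33). Among all genes 17.7% were lower and 16.6% higher, so the higher share was near that of all genes. HMGCS1, an early enzyme of the pathway, was at 124, 116 and 116 CPM with licorice against 244, 233 and 238 CPM with ginseng (-1.01 ± 0.052, edgeR adjusted p = 1.18e-20), on either side of its vehicle mean of 208 CPM. ACAT2 (-0.93 ± 0.055), LSS (-0.57 ± 0.057) and IDI1 (-0.57 ± 0.066) were lower too.

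The 4 higher genes included INSIG1 (0.31 ± 0.040), a sterol-regulated protein that holds SREBP in the endoplasmic reticulum, and SREBF2 (0.13 ± 0.038), which encodes SREBP2. Without a filter on low counts SREBF2 was not called (edgeR, adjusted p = 0.0779). INSIG1 was at 84.9, 80.7 and 78.9 CPM against 64.6, 65.9 and 66.6 CPM, with all licorice libraries above all ginseng libraries. The enzymes named here and these regulators thus lay on opposite sides. With ginseng, the mean of FDPS, a later enzyme, went from 122 CPM at 20 µg/mL to 154 CPM at 500 µg/mL, and with licorice from 122 to 115 CPM.

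Fatty acid synthesis genes were split, with 8 of 13 lower and 4 higher. FASN, the fatty acid synthase, was lower (-0.50 ± 0.060), as was the desaturase FADS2 (-0.54 ± 0.041). The lower count was 5 of 13 without licorice replicate 2. SCD, a desaturase, was higher (0.25 ± 0.036), and so was SREBF1 (0.68 ± 0.062). Of 9 LXR targets, 7 were higher and none lower, among them SREBF1, SCD, MYLIP (0.80 ± 0.17) and APOE (0.56 ± 0.076). PLIN2, which coats lipid droplets, was at 156, 139.8 and 138 CPM with licorice against 62.3, 61.9 and 66.9 CPM with ginseng (1.18 ± 0.056, edgeR adjusted p = 5.33e-22).

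**Figure D4:**
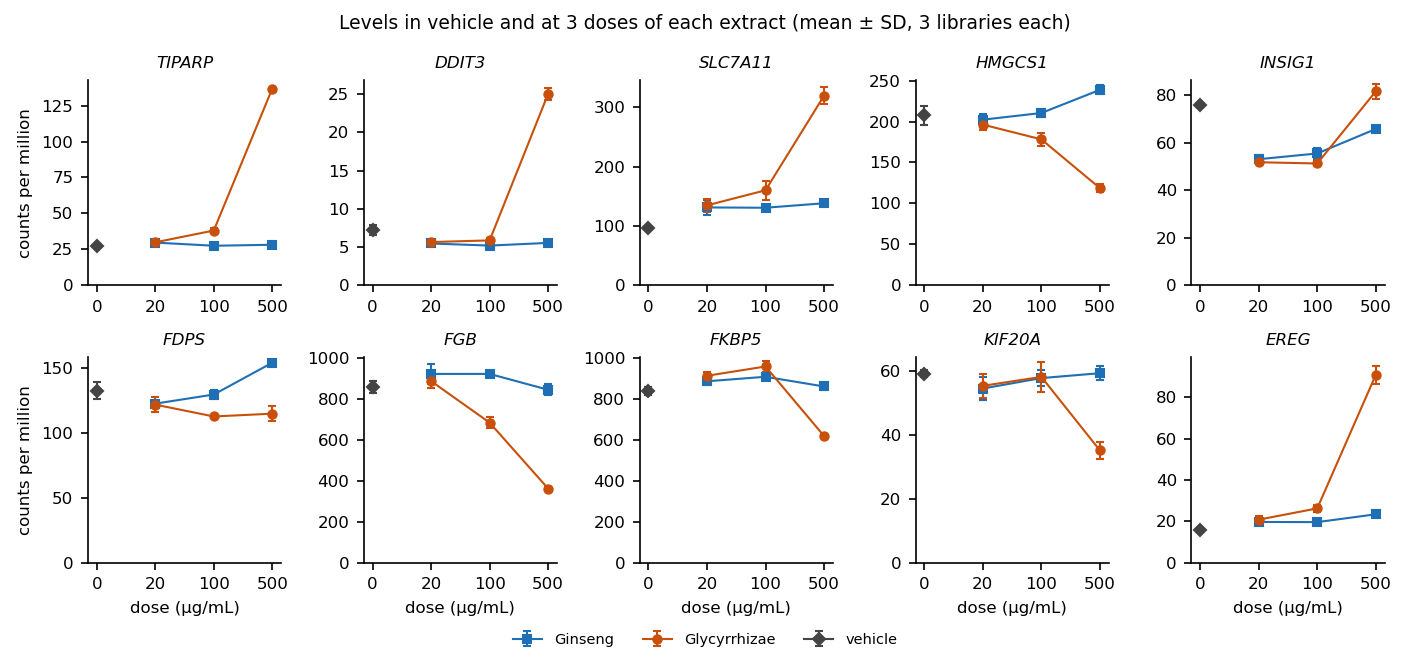
Mean ± SD of 3 libraries in CPM for 10 genes in vehicle (0) and at 20, 100 and 500 µg/mL of Ginseng (blue) and Glycyrrhizae (orange), with the doses evenly spaced on the axis. At 500 µg/mL TIPARP, whose groups already differ at 100 µg/mL, and DDIT3 reach licorice means of 137 and 25.0 CPM, while HMGCS1 ends at 119 CPM with licorice and 239 CPM with ginseng.

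Cell cycle genes were lower with licorice, by modest amounts. Of 24 genes of the G2 and M phases, 19 were lower and none higher (median -0.28), and of 24 genes of the G1 and S phases, 13 were lower and none higher (median -0.23). Among all genes 17.7% were lower and 16.6% higher. KIF20A, a kinesin of cytokinesis, was at 38.3, 33.3 and 34.2 CPM with licorice against 58.1, 58.4 and 61.9 CPM with ginseng (-0.75 ± 0.064, edgeR adjusted p = 2.30e-13). MKI67, the proliferation marker, was at 355, 319 and 282 CPM against 464, 382 and 449.7 CPM (-0.44 ± 0.091). Both were separated without overlap, at 59.4 and 388 CPM in vehicle. AURKA (-0.56 ± 0.050), BIRC5 (-0.53 ± 0.079), RRM2 (-0.53 ± 0.040) and MCM4 (-0.49 ± 0.037) were lower as well.

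TOP2A (-0.11 ± 0.049), UBE2C (0.041 ± 0.088) and CDT1 (0.10 ± 0.095) were not called. Of 13 histone genes, 9 were lower and 1 higher. Most histone transcripts lack a poly(A) tail, and the labels call the libraries messenger RNA libraries without saying how that RNA was selected. In these bulk samples, fewer cells of a type or phase and less RNA per cell cannot be told apart.

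Inflammatory genes went both ways. Of 21 cytokine and feedback genes of the NF-kB pathway, 6 were higher and 9 lower. TNFAIP3, the feedback inhibitor A20, was at 19.9, 13.5 and 14.0 CPM with licorice against 27.5, 26.1 and 26.8 CPM with ginseng (-0.76 ± 0.081, edgeR adjusted p = 1.67e-10). NFKBIA (-0.42 ± 0.065), CXCL1 (-0.68 ± 0.12), CCL2 (-1.02 ± 0.18) and SAA1 (-0.79 ± 0.070) were lower, SAA1 with a close copy in SAA2. IL1B was higher at a low level, with 56, 33 and 42 counts against 7, 8 and 13 (2.14 ± 0.33), and LIF was higher (0.71 ± 0.054). Of 18 interferon genes, 3 were higher, a share near the 16.6% of all genes. Another 6 were lower, beside 17.7% of all genes, IFIT1 (-0.62 ± 0.068) among them.

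A549 cells make a set of proteins usually secreted by liver, and this list had the lowest median of the 51 lists examined. Of 16 tested, 11 were lower and none higher, beside 17.7% and 16.6% of all genes, with a median of -0.92. APOB, the core protein of low-density lipoprotein, was at 2.01, 2.00 and 1.38 CPM with licorice against 7.15, 6.80 and 7.45 CPM with ginseng (-1.99 ± 0.14, edgeR adjusted p = 1.49e-15). HPX (-1.83 ± 0.21), which binds heme, ITIH2 (-1.64 ± 0.14) and CP (-0.89 ± 0.063), the copper oxidase of plasma, were lower too. TF, transferrin, was lower (-1.66 ± 0.12), but overlaps SRPRB on the same strand. SERPINA3 was not called (-0.17 ± 0.089).

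The fibrinogen chains moved together: FGB was at 370.3, 356 and 359 CPM against 821, 837 and 874 CPM (-1.22 ± 0.041), FGA differed by -0.86 ± 0.043 and FGG by -0.77 ± 0.056. Of 18 coagulation and plasminogen genes, 10 were lower and 6 higher. PLAU, the urokinase that activates plasminogen, was lower (-0.88 ± 0.058). Of 16 complement genes, 9 were lower and 2 higher, beside 17.7% and 16.6% of all genes. Among them, C3 was at -0.51 ± 0.053, CD59 at -0.84 ± 0.058 and CD55, a membrane inhibitor, at 0.63 ± 0.077.

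Glucocorticoid-responsive genes were mostly lower with licorice, a root known for compounds that slow the breakdown of cortisol. Of 17 tested, 13 were lower and 2 higher (median -0.29), beside 17.7% and 16.6% of all genes. The higher count was 1 without licorice replicate 1 or ginseng replicate 1 or 2. SGK1, a kinase that steroids raise, was at 68.5, 69.0 and 70.0 CPM with licorice against 134, 136 and 143 CPM with ginseng (-0.99 ± 0.045, edgeR adjusted p = 8.80e-23), beside a vehicle mean of 143 CPM. FKBP5, the receptor's co-chaperone, was at 613, 632 and 615 CPM against 877, 841 and 870.2 CPM (-0.48 ± 0.032). DUSP1 (-0.64 ± 0.040) and PER1 (-0.68 ± 0.060) were lower, TSC22D3 (GILZ) was higher (0.20 ± 0.036) and ZBTB16 was not called (-0.066 ± 0.091).

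In a mixed list of enzymes of steroid metabolism, sodium channel and pump subunits and a regulator of the channel, 6 of 10 tested genes were lower and none higher. SCNN1G, a subunit of the epithelial sodium channel, was at 136, 123 and 119.5 CPM against 241, 241 and 244 CPM (-0.94 ± 0.043), and the sodium pump subunit ATP1B1 differed by -0.50 ± 0.045. The other channel subunits SCNN1A (0.082 ± 0.062) and SCNN1B (-0.082 ± 0.050) were not called. HSD11B1, which makes cortisol from cortisone, was lower (-0.86 ± 0.14). HSD11B2, the enzyme that glycyrrhetinic acid is known to inhibit, was at 3.11, 2.35 and 1.45 CPM with licorice and 2.37, 1.61 and 1.71 CPM with ginseng, groups that overlapped (0.29 ± 0.20, edgeR adjusted p = 0.292). Its value was -0.005 without licorice replicate 1 and 0.542 without licorice replicate 3, where it was called (edgeR, adjusted p = 0.0292). At 100 µg/mL HSD11B2 was called higher with licorice (0.815 ± 0.19, edgeR adjusted p = 0.0119), with means of 3.21 and 1.83 CPM. That call was lost without licorice replicate 1 or ginseng replicate 2 of that dose and with a replicate block. It was also lost when only the 18 libraries of both extracts, or the 6 of that dose, were fitted.

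Of 16 clock genes, 3 were higher and 3 lower, shares near the 16.6% and 17.7% of all genes. PER2 was at 43.9, 40.9 and 39.9 CPM against 80.2, 80.1 and 80.7 CPM (-0.95 ± 0.050), while NR1D2, a clock repressor, was higher (1.44 ± 0.11) and its relative NR1D1 was not called (-0.15 ± 0.11). BMAL1 (0.028 ± 0.059) and CLOCK (0.052 ± 0.054), which drive the loop, were not called either.

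Secreted modulators of Nodal and Wnt signalling were mostly lower with licorice. Of 10 tested genes of that list, 7 were lower and none higher (median -0.65), and 1 was called higher without ginseng replicate 2. LEFTY1, a Nodal inhibitor, was at 2.24, 2.22 and 1.68 CPM with licorice against 13.1, 16.0 and 12.9 CPM with ginseng (-2.78 ± 0.17, edgeR adjusted p = 2.44e-18), and reads may be shared with its close copy LEFTY2. DKK1, a Wnt inhibitor, was at 28.8, 26.8 and 27.2 CPM against 69.2, 71.0 and 71.5 CPM (-1.35 ± 0.076). AXIN2, a Wnt target, was lower (-0.78 ± 0.18).

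ID2 and ID3, targets of bone morphogenetic protein signalling, were lower (-1.15 ± 0.10 and -0.97 ± 0.067), within a list of 11 where 7 were lower and 2 higher. That lower count was 4 when licorice replicate 1 was left out. Of 16 YAP targets, 8 were lower and 2 higher, with ANKRD1 at -0.90 ± 0.10 and AXL, a receptor kinase, at 0.55 ± 0.063. Genes of the mesenchymal programme were mixed, with 7 of 20 higher and 5 lower, a median of 0.012 and values from -1.49 to 0.97. The transcription factor SNAI2 (-0.75 ± 0.10) and the integrin ITGB6 (-1.49 ± 0.17) were among the lower ones.

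Among junction proteins, CLDN2, a claudin that forms pores for cations, had the largest difference toward ginseng among genes at 5 CPM or more in either group. It was at 0.72, 0.305 and 0.224 CPM with licorice against 5.88, 5.66 and 6.33 CPM with ginseng (-3.81 ± 0.30, edgeR adjusted p = 3.19e-14), from 19, 7 and 6 and 139, 155 and 141 counts. Occludin (OCLN) was higher (1.02 ± 0.12), and over 14 junction genes 5 were higher and 4 lower, or 2 lower with scaling by library totals. MAPK4, an atypical kinase, was at 0.872, 1.09 and 1.04 CPM against 9.22, 8.77 and 10.4 CPM (-3.23 ± 0.12), and PGC, a pepsinogen made in lung and stomach, at 4.21, 2.83 and 2.87 CPM against 20.0, 24.3 and 21.7 CPM (-2.73 ± 0.12). All 3 were separated without overlap.

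Markers of the line itself shifted. SFTPD, surfactant protein D, was at 1.78, 2.27 and 2.16 CPM with licorice against 6.64, 7.71 and 7.27 CPM with ginseng (-1.80 ± 0.12), and LAMP3, of lamellar bodies, was higher (2.35 ± 0.22). The keratins KRT8, KRT18 and KRT19 were lower, at -0.69 ± 0.053, -0.51 ± 0.047 and -0.40 ± 0.042, and KRT8 and KRT18 also have processed copies. Of 15 tested epithelial and alveolar markers, 8 were lower and 4 higher. All 20 listed markers summed to 4224 to 4372 CPM with licorice, 6179 to 6490 CPM with ginseng and 7818 to 7978 CPM with vehicle. These sums use library totals without TMM adjustment, and KRT8 and KRT18 carried most of the sum with both extracts.

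Markers of cell types that the line should lack were measured as well, and their part in the results was not tested. Their sums also use library totals without TMM adjustment. The 12 leukocyte markers summed to 66.7 to 76.8 CPM with licorice and 24.0 to 30.3 CPM with ginseng, but PTPRC, CD3D, MS4A1 and HLA-DRA were at 0 in all 6 libraries, and CD68 carried most of the sum. CD68, a lysosomal protein that is not limited to macrophages and overlaps another annotated gene on the same strand, differed by 1.51 ± 0.15. Markers of endothelium summed to 12.4 to 13.3 CPM with licorice and 18.2 to 19.6 CPM with ginseng, those of fibroblasts and muscle to 26.3 to 26.9 CPM and 26.3 to 31.2 CPM, and those of erythroid cells to at most 0.414 CPM. Markers of neurons summed to 147.9 to 163.4 CPM with licorice and 111.2 to 112.9 CPM with ginseng, and STMN2 was at 0 in all 6. MAP2, a microtubule protein that carried much of that sum, was called higher (0.68 ± 0.053).

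Median differences were small for genes of translation and respiration, and genes of glycolysis and the hypoxia response lay on both sides. Of 30 cytosolic ribosomal protein genes, 4 were higher, beside 16.6% of all genes, and none lower (median 0.10). The higher count was 12 with a replicate block, 11 when only the 6 libraries were fitted, 7 without a filter on low counts and 2 without licorice replicate 3 or ginseng replicate 3. Of 27 nuclear genes of the respiratory chain, 10 were lower and none higher (median -0.14), led by ATP5MC1 (-0.46 ± 0.082). None of the 13 mitochondrial genes of the chain was called by edgeR, or 2 without a filter on low counts and 1 when only the 6 libraries were fitted. In glycolysis and the hypoxia response, 11 of 23 were lower, LDHA (-0.59 ± 0.049) and PKM (-0.47 ± 0.054) among them, and 6 were higher, led by HK2 (1.17 ± 0.14). Of 13 housekeeping genes, 5 were lower and none higher, with ACTB at -0.31 ± 0.049 and GAPDH, not called, at -0.064 ± 0.070.

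Several of the 30 largest differences fell outside these groups. EEF1A2, a translation elongation factor of muscle and neurons, was higher (2.56 ± 0.10), as were AKNA, a centrosome protein (2.43 ± 0.095), and the kinesin KIF21B (2.43 ± 0.11). NTS, the peptide neurotensin, was at 25.6, 22.6 and 24.1 CPM with licorice against 84.0, 86.0 and 96.6 CPM with ginseng (-1.88 ± 0.091). INHA, the inhibin alpha chain, was lower (-1.87 ± 0.10), as were the adrenergic receptor ADRA2A (-2.13 ± 0.12), the complexin CPLX2 (-2.16 ± 0.043), the potassium channel KCNJ16 (-1.86 ± 0.072) and the cell cycle inhibitor CDKN1C (-1.77 ± 0.13). Of the 715 called genes that differed at least 2-fold, 93 were on any of the 51 lists.

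The same extracts were then compared at lower matched doses, in libraries that the comparison at 500 µg/mL did not use. At 100 µg/mL, 268 genes were called (1.51%), 92 higher and 176 lower with licorice (171 genes without ginseng replicate 3, and 46 when only the 6 libraries of that dose were fitted), and at 20 µg/mL 3 genes were called (0.0169%). The 3 were ALDH3A1 (0.40 ± 0.041), BEST2 (0.36) and CYP1B1 (0.25 ± 0.040), all higher with licorice. BEST2 was not called without ginseng replicate 2 or 3 of that dose (edgeR, adjusted p = 0.0735 and 0.0518), and CYP1B1 was not with scaling by library totals (adjusted p = 0.977). Neither was called when the 18 libraries of both extracts were fitted (adjusted p = 0.0617 for each), and no gene was when only the 6 libraries of that dose were fitted. At 20 µg/mL, 531 genes had an unadjusted p under 0.05, DESeq2 called 5 genes, and the fit with a replicate block called 5. Of the 268 genes called at 100 µg/mL, 209 were called in the same direction at 500 µg/mL (78% of the 268 and 3.42% of the 6103) and 20 in the opposite direction. Among all genes tested, 16.6% were called higher and 17.7% lower at 500 µg/mL. Both comparisons came from 1 fit and share its estimate of each gene's spread.

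Receptor targets already differed at 100 µg/mL, where 6 of the 13 genes of that list were higher, beside 1.51% of all genes called. CYP1A1 differed by 5.08 ± 0.24 at 100 µg/mL (edgeR, adjusted p = 1.19e-20), with a licorice mean of 9.14 ± 1.11 CPM, and by 1.12 ± 0.48 at 20 µg/mL, where it was not called (adjusted p = 1). ALDH3A1 differed by 1.05 ± 0.041 at 100 µg/mL, close to its 1.27 at 500 µg/mL. TIPARP differed by 0.47 ± 0.050 and AHRR by 1.02 ± 0.18 at that dose.

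None of the 22 ATF4 targets was called higher at 100 µg/mL by DESeq2 or in the edgeR fit reported here, while 1 was with a replicate block and 1 without a filter on low counts. At an unadjusted p under 0.05 in the edgeR fit reported here, 2 of 22 were higher and 3 lower. VEGFA was called lower (-0.21 ± 0.051, adjusted p = 0.018), but not without licorice replicate 1 or 2 or ginseng replicate 2 or 3 (adjusted p from 0.0783 to 0.124). ADM2, CHAC1 and DDIT3 differed at 100 µg/mL by 0.13 ± 0.28, 0.15 ± 0.15 and 0.18 ± 0.10, and none of the 3 was called. For ASNS the difference was 0.24 ± 0.052 at 100 µg/mL, called unless only the 6 libraries of that dose were fitted, and 2.65 ± 0.049 at 500 µg/mL. Genes of the cholesterol pathway had begun to part, with 9 of 25 lower at 100 µg/mL, among them HMGCS1 (-0.24 ± 0.051). That count was 5 without licorice replicate 1, which also ended the call for HMGCS1 (edgeR, adjusted p = 0.056), 2 with scaling by library totals, 6 with the 18 libraries of both extracts or without licorice replicate 3 or ginseng replicate 1 or 2, and 1 when only the 6 libraries of that dose were fitted. So had liver-type secreted proteins, with 5 of 16 lower (3 without licorice replicate 2 or with the 18 libraries, 2 with the 6), and coagulation genes, with 7 of 18 lower (4 with scaling by library totals, 1 with the 6 libraries), FGB (-0.43 ± 0.041) among them. No gene of the G2/M or G1/S lists was called at 100 µg/mL by edgeR or DESeq2, and at an unadjusted p under 0.05 the G2/M list had 4 genes higher and the G1/S list 1 lower.

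**Figure D5:**
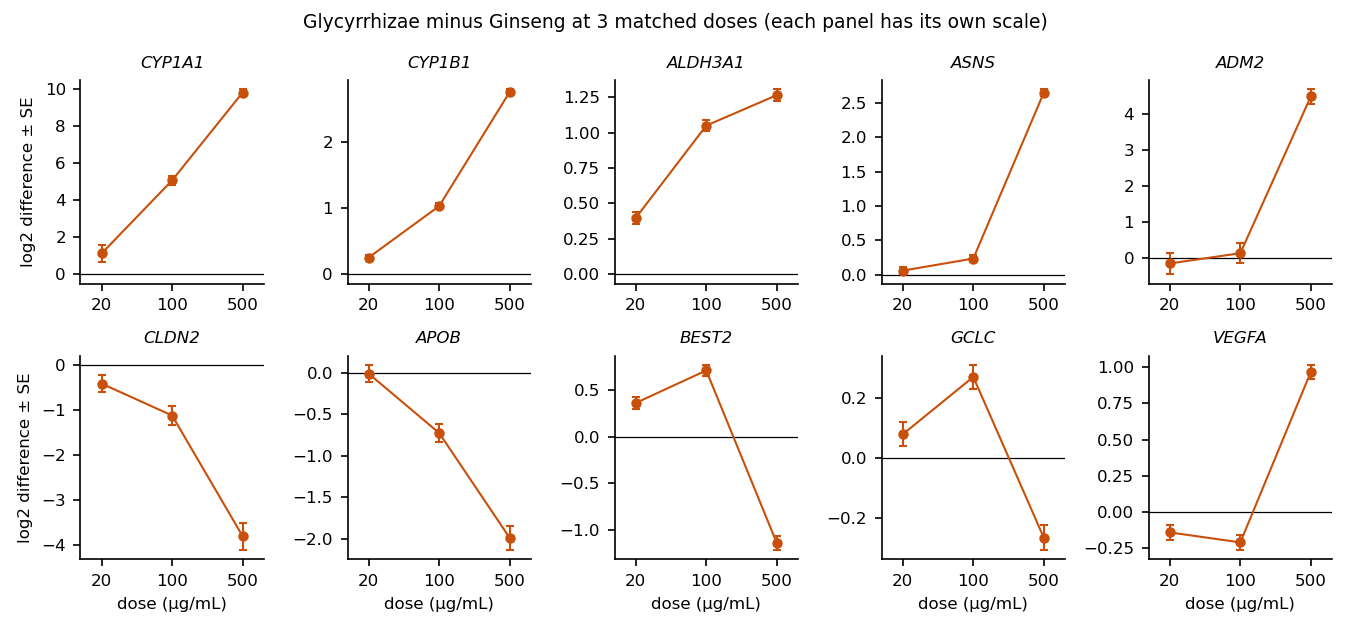
Log2 difference of Glycyrrhizae minus Ginseng ± SE at 20, 100 and 500 µg/mL for 10 genes, each panel with its own scale and the doses evenly spaced. CYP1A1, CYP1B1 and ALDH3A1 already lie above 0 at 100 µg/mL, ASNS and ADM2 rise at 500 µg/mL, and BEST2, GCLC and VEGFA change sign between 100 and 500 µg/mL.

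The change of the difference itself from 20 to 500 µg/mL was tested as a difference of differences, which shares the libraries at 500 µg/mL with the comparison at that dose. It was called for 3738 genes (21% of those tested), 1727 upward and 2011 downward. For CYP1A1 it was 8.70 ± 0.87 (edgeR, adjusted p = 5.71e-11), for ASNS 2.59 ± 0.072, for ADM2 4.64 ± 0.38, for HMGCS1 -0.96 ± 0.073 and for SGK1 -0.98 ± 0.062. It was called upward for 19 of the 22 ATF4 targets and for 8 of the 13 genes of the receptor list, and downward for none of either, beside 21% of all genes called. With a replicate block, ATF5 of the ATF4 list was called downward (-0.34, edgeR adjusted p = 0.0231), as it was without a filter on low counts (adjusted p = 0.00233).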

How the data were processed

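Messenger RNA of A549 cells was measured by paired-end RNA-seq in 60 libraries of 25 groups. The deposited table holds expected counts per gene, which the authors made from the reads with FastQC 0.11.9, Trim Galore 0.6.5, STAR 2.7.3a and RSEM 1.3.3 on GRCh38, per the submitters' processing notes. No source used here names the annotation release or the strand setting. The table has 210 further columns of other sample codes, which were not used. Library totals are 18602484 to 29764358 expected counts, and 75.98% of the values were whole within 1e-09.

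Symbols came from a gene name table for 56558 of the 60675 identifiers and from GENCODE 29 for another 497. Expected counts were rounded and filtered with filterByExpr, which left 17764 genes, ABCB1 not among them. All 60 libraries were then fitted in 1 edgeR quasi-likelihood model with a term for each group (R 4.3.3, edgeR 4.0.16, limma 3.58.1), scaled by TMM, with 35 residual degrees of freedom and a biological coefficient of variation of 5.586%. Fitting all groups together gives 1 estimate of the spread, to which the groups with 1 or 2 libraries add little or nothing. Contrasts were Glycyrrhizae minus Ginseng at 500, 100 and 20 µg/mL and the difference between the first and the last. The threshold was an adjusted p of 0.05 over all genes tested.

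The members and lists were chosen with earlier results of these data known. Genes were named by rule: the 15 largest called differences each way at 5 CPM or more without overlap of groups, up to 6 called members of each list at 1 CPM or more, and a set of fixed genes. Other list members named, the uncalled ones among them, were chosen after their values were seen. Replicates of a group differed beyond counting noise, with chi-square per degree of freedom of 3.60 to 13.8 among the 6 libraries. At 100 µg/mL it was 11.0 to 38.7 with licorice and 4.31 to 6.54 with ginseng. At 20 µg/mL it was 5.59 to 26.3 with licorice and 11.8 to 40.3 with ginseng. Same-numbered libraries of both extracts deviated together at 100 µg/mL (r = 0.296, 0.208 and 0.268) and 20 µg/mL (r = 0.186, 0.586 and 0.478). The fit reported here has no term for the replicate number at any dose. Only the alternative with a replicate block uses it.

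In simulated data for the comparison at 500 µg/mL, with 17557 genes tested, the fit recovered 15, 33, 38 and 44 of 50 genes changed 1.25, 1.5, 2 and 4-fold and called 5 of 17360 unchanged genes. The simulated libraries were drawn independently, with a spread set near that of the fit and few genes changed. The data have many more called genes and a deviating licorice replicate 1. The simulated counts therefore do not measure the error rate in the data. Alternatives were RLE size factors, library totals alone, no filter, fewer libraries, a replicate block, each library left out, and DESeq2 1.42.0.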

Additional observations from a re-analysis of the deposited data

Results flagged for a closer look

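The difference between licorice and ginseng depended on dose: for 3738 genes the difference at 500 µg/mL itself differed from that at 20 µg/mL, in a test of the difference of differences (edgeR, adjusted p of at most 0.05 over the 17764 genes tested). Of these, 1727 moved toward licorice and 2011 toward ginseng. With groups of 3 libraries, no test for a library far from its group was made.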

How the results depend on the processing

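At 500 µg/mL the count of 6103 called genes ranged from 5320 (without ginseng replicate 2) to 6450 (replicate block) over the alternatives run, and from 5320 to 5520 when 1 library was left out. The count from DESeq2 was 5663, from library totals 5398, without a filter 5637, from the 6 libraries alone 6105 and from the 18 libraries of both extracts 5482. No gene called in the fit reported here changed sign in any of them. The block on the replicate number gave 6450 there. Same-numbered libraries at 500 µg/mL had weak correlations of 0.152, 0.092 and 0.01, and the labels do not say what a shared number means. In these values ginseng replicate 2 and licorice replicate 3 correlated more (0.132) than the pairs numbered 2 and 3. The difference of differences was called for 2961 to 4002 genes.

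At 100 µg/mL the count of 268 was 151 with library totals, 46 with only the libraries of the comparison, 146 with the 18 libraries of both extracts, 281 with the replicate block and 171 to 230 with 1 library left out (171 without ginseng replicate 3). At 20 µg/mL the count of 3 was 54 without a filter on low counts, 0 with only the libraries of the comparison, 1 with 18 libraries, 5 with the replicate block, 5 in DESeq2, and 2 to 3 with 1 library left out. Where a library was left out, the pair that remained was judged against the spread of all groups. The cause of these differences was not tested. HSD11B2 at 500 µg/mL ranged from -0.005 to 0.542 with 1 library left out. The share of called genes that were higher moved from 48.4% to 53.3% at 500 µg/mL and from 34.3% to 41.1% at 100 µg/mL under library totals. Depth limits the genes with few reads in a group, such as CYP1A1 with ginseng and CLDN2 with licorice.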

Other observations

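Some genes lay on opposite sides at 100 and 500 µg/mL. Of the 20 called at both doses in opposite directions, ETNK2, an ethanolamine kinase, was at 102 CPM with licorice against 83.0 CPM with ginseng at 100 µg/mL (0.30 ± 0.049), and at 29.3 against 72.3 CPM at 500 µg/mL (-1.30 ± 0.054, means of 3 libraries). BEST2, a bestrophin chloride channel, went with licorice from 17.8 CPM at 20 µg/mL and 22.0 CPM at 100 µg/mL to 5.22 CPM at 500 µg/mL, while ginseng means stayed between 11.5 and 13.9 CPM. The keratin KRT4 differed by 0.40 ± 0.049 at 100 µg/mL and -1.10 ± 0.055 at 500 µg/mL, and the cadherin CDH16 by 0.34 ± 0.041 and -0.83 ± 0.042. SMOX, which oxidises spermine, turned the other way, from -0.29 ± 0.049 to 0.59 ± 0.049. GCLC, the catalytic subunit of glutathione synthesis, was higher at 100 µg/mL (0.27 ± 0.040) and lower at 500 µg/mL (-0.27 ± 0.040). With only the 6 libraries of that dose fitted, ETNK2, SMOX and GCLC were not called at 100 µg/mL (edgeR, adjusted p = 0.0641, 0.162 and 0.0585). These genes were named after their values were seen.

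Other groups differed less in size. Of 14 genes of PPAR signalling and fatty acid oxidation, 4 were higher, CPT1A (0.36 ± 0.067), the gate of mitochondrial fatty acid import, among them, and 5 lower, ANGPTL4 (-0.51 ± 0.072), a lipase inhibitor, among them. The vitamin D receptor VDR was at 11.0, 10.4 and 10.5 CPM with licorice against 6.22, 6.17 and 4.85 CPM with ginseng (0.88 ± 0.11), without overlap. CYP4F11, which hydroxylates fatty acids, was at 109, 102 and 104 CPM against 61.7, 62.1 and 60.8 CPM (0.77 ± 0.050), and the efflux pump ABCC3 differed by 0.43 ± 0.057. Of the insulin pathway's docking proteins, IRS1 (-0.39 ± 0.055) and IRS2 (-0.38 ± 0.068) were lower. TXNIP, a thioredoxin inhibitor that follows glucose, was at 7.70, 8.59 and 8.75 CPM against 3.93, 4.02 and 3.41 CPM (1.13 ± 0.11).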
